A study of Mus musculus with 3 samples.

Results

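The genes examined here were *Abca1*, *Abcg1*, *Apoe*, *Nr1h2*, *Nr1h3* and *Mylip*, which serve cholesterol efflux and its control by the liver X receptors (LXRs). They are 6 of the 21938 protein-coding genes of the mouse annotation, taken by name, and a peak was assigned to a gene when it reached into the gene body or came within 50 kb of either end. Binding of Ad4BP/SF-1 (NR5A1), a nuclear receptor of steroid-producing cells, was mapped by chromatin immunoprecipitation and sequencing (ChIP-seq) in Leydig cells, the androgen-producing cells of the testis. The cells were pooled from male ICR mice 9 weeks old, cultured on collagen, and given vehicle or cAMP, the second messenger through which luteinizing hormone acts on them. Each condition was 1 library, so differences between vehicle and cAMP have no replicate spread to be judged by and were not tested. Neither the form of cAMP nor its dose or time is given in the sources used here, and the cells were a density-gradient preparation from the whole testis whose purity the peak lists cannot show, since expression is not part of these data.

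Cholesterol that a cell does not use is removed through the plasma membrane transporters ABCA1 and ABCG1, which pass it to apolipoprotein A-I and to high-density lipoprotein, while apolipoprotein E serves as a further acceptor and as a ligand of lipoprotein receptors. The LXRs, encoded by *Nr1h3* (LXRα) and *Nr1h2* (LXRβ), are activated by oxysterols, pair with a retinoid X receptor (RXR) and raise transcription of *Abca1*, *Abcg1*, *Apoe* and *Mylip*. MYLIP, also called IDOL, is a ubiquitin ligase that marks receptors of the lipoprotein family for degradation, so that it limits uptake when sterol is plentiful. In steroid-producing cells the same cholesterol is the starting material of hormone synthesis.

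Peaks were found at 3 of the 6 genes in the vehicle list (*Abca1*, *Apoe* and *Nr1h3*) and at 2 in the cAMP list (*Abca1* and *Apoe*). By the same rule, 36.7% of all protein-coding genes had a vehicle peak and 28.9% a cAMP peak, so the counts of the 6 genes lay near the background. Both lists held a peak at 2 of the 6 genes, against 22.5% of all genes, and neither list did at *Abcg1*, *Nr1h2* and *Mylip*, against 56.9% of all genes. Longer genes collect more peaks under this rule. Of the genes of 50 kb or longer, to which *Abca1* (129 kb) and *Abcg1* (60.3 kb) belong, 44.7% had a vehicle peak and 38.2% a cAMP peak, whereas the shares among shorter genes were 34.4% and 26.1%. The 6 genes together held 7 vehicle peaks out of 5721 and 5 cAMP peaks out of 4025. The map of the 6 genes shows that the peaks were of 3 kinds: at the promoter of *Abca1*, in a group around *Apoe* and upstream of it within *Nectin2*, and single remote peaks 3′ of *Abca1* and 5′ of *Nr1h3*.

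**Figure D1:**
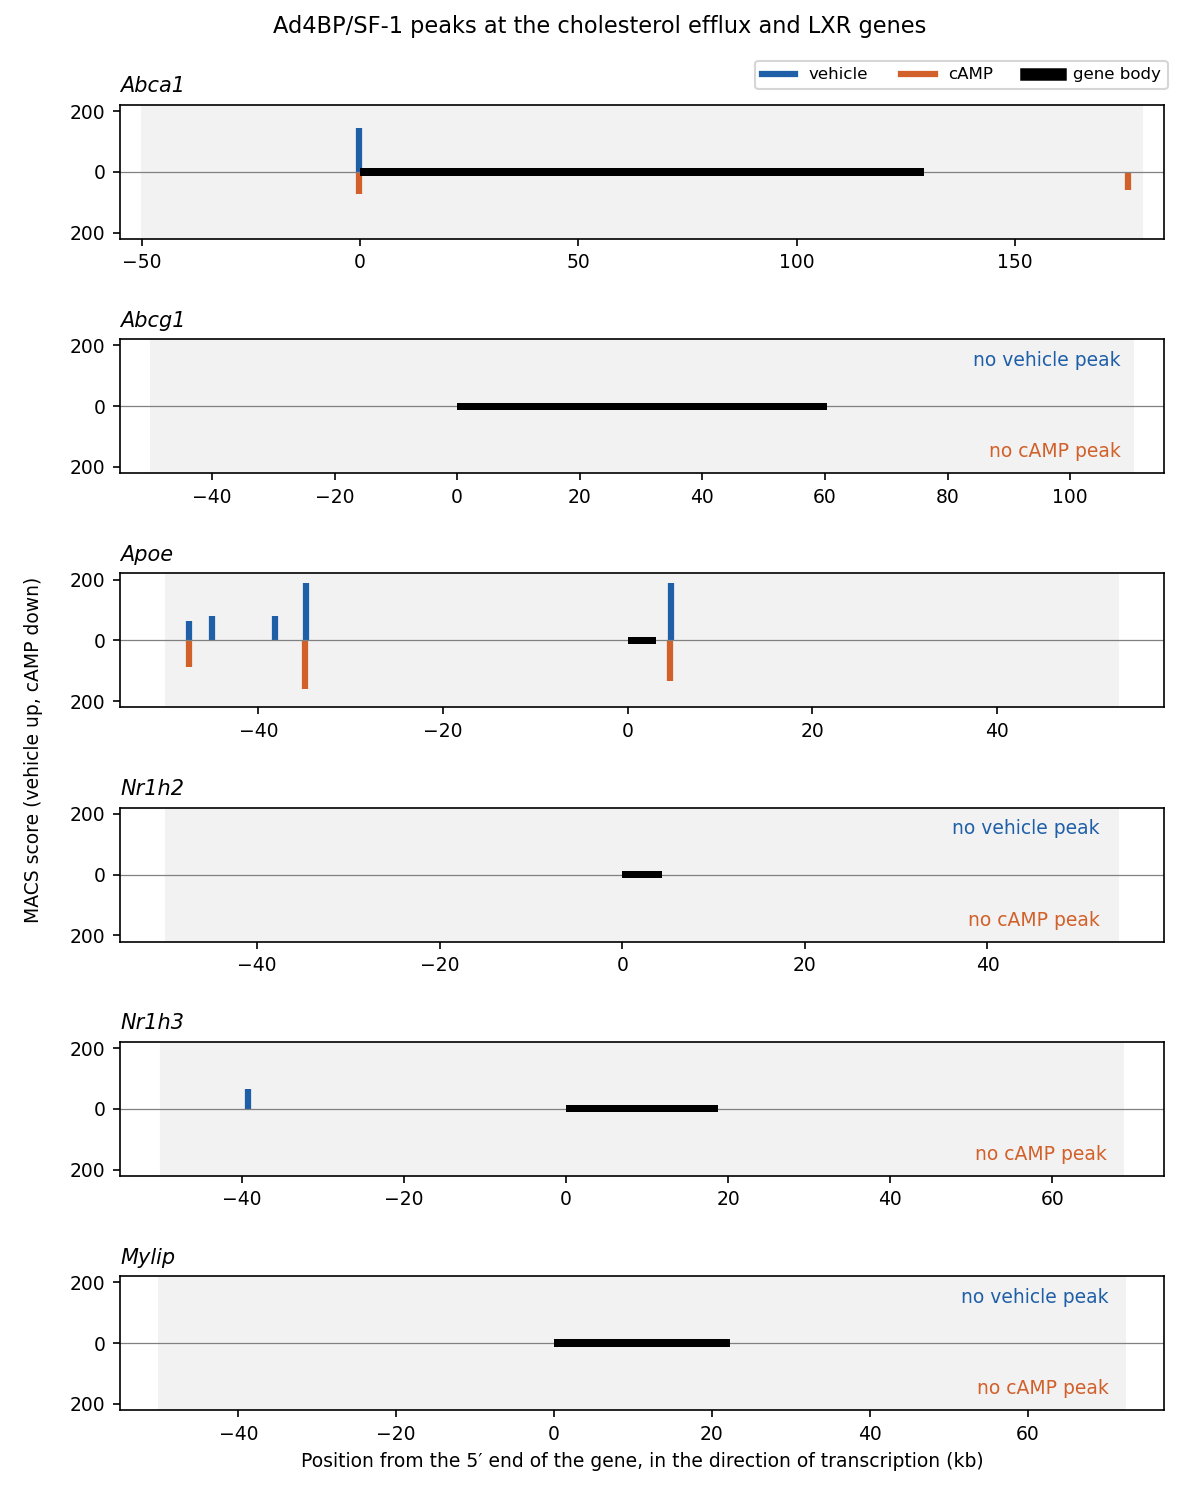
Peaks of Ad4BP/SF-1 at the 6 genes, with the position from the 5′ end of each gene in kb, in the direction of transcription, on the horizontal axis and the MACS score on the vertical axis, vehicle upward in blue and cAMP downward in orange. Black bars are gene bodies and the grey area is the gene with 50 kb on either side; *Abca1* is the only one of the 6 with a peak touching the gene body, and *Abcg1*, *Nr1h2* and *Mylip* have none.

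The MACS score is 10 times the negative log10 of the p-value that the authors' peak caller gave, and each list begins at about 50. The vehicle list reached 905 with a median of 72.4, and the cAMP list reached 803 with a median of 67.9. Because the number of reads behind each list is unknown, a score was read against its own list, by its rank and by the share of the list that scored lower. As a check of the immunoprecipitation, 6 known Ad4BP/SF-1 targets were looked up by the same rule. *Cyp11a1*, *Star* and *Scarb1* had peaks in both lists, *Cyp17a1* had 4 vehicle peaks and no cAMP peak, and *Hsd3b1* and *Insl3* had none in either.

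*Abca1*, the transporter that loads cholesterol onto apolipoprotein A-I, lies on the minus strand of chromosome 4 (chr4:53030787-53159895, mm10). The vehicle peak at its promoter (chr4:53159818-53160527) was 710 bp wide and covered the 5′ end of the gene, with its centre 277 bp upstream. It scored 142.86 and ranked 691 of 5721, above 87.9% of the list. The cAMP peak (chr4:53159856-53160351) was 496 bp wide, lay wholly inside the vehicle peak and was centred 208 bp upstream, 69 bp from the vehicle centre. Its score was 73.93 and its rank 1669 of 4025, above 58.5% of the list. The promoter peak thus stood high in the vehicle list and somewhat above the middle of the cAMP list. Among the 614 vehicle peaks centred within 1 kb of a protein-coding transcription start (10.7% of the list) it ranked 103, and among the 350 such cAMP peaks (8.7%) it ranked 169. A counterpart in the other list was present for 42% of these vehicle promoter peaks and for 74.3% of the cAMP ones.

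The stretch of the *Abca1* promoter from 250 bases before to 50 bases after the start is shown because the whole of it lay in the vehicle peak and 290 of its 300 bases lay in the cAMP peak. It comes from RefSeq (GRCm38.p6, the mm10 assembly, minus strand, chr4:53159846-53160145). Capitals mark GGGCGG, the core of the GC box, at 163 and 97 bases before the start, and CACGTG, an E-box, at 147 bases before it.
Abca1 promoter: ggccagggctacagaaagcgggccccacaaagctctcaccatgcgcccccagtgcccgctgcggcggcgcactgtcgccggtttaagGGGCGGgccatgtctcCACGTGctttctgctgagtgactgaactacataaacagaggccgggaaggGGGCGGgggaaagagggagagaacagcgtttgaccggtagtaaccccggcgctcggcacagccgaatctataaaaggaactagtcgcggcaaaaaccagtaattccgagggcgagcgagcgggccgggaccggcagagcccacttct

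The consensus sequence of Ad4BP/SF-1, searched as TCAAGGTC, TCAAGGCC, CCAAGGTC or CCAAGGCC on both strands, was in neither the vehicle nor the cAMP peak at the *Abca1* promoter, and the shorter CAAGGTC or CAAGGCC was also not in them. The 8 letters were in 80.4% of all vehicle peaks and 77.1% of all cAMP peaks, and the 7 letters in 83.8% and 80%. Of the peaks within 1 kb of a start, 82.1% (vehicle) and 86% (cAMP) held them, so a promoter peak that lacked them was in the minority. Of the 614 vehicle promoter peaks, 93 (15.1%) lacked even the 7 letters, and the *Abca1* peak ranked 9 among those 93 by score. Of the 350 cAMP promoter peaks, 42 (12%) lacked them, and the *Abca1* peak ranked 16. In both lists 24 of these peaks were shared.

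What the *Abca1* promoter peak did hold was 1 copy of AGGTCA, the half-site that many nuclear receptors recognise, on the minus strand and 257 to 252 bp upstream of the start, just outside the RefSeq stretch. It lay 22 bp from the centre of the vehicle peak and 47 bp from that of the cAMP peak. AGGTCA was in 71.5% of all vehicle peaks and 69.2% of all cAMP peaks, and in all 7 vehicle and all 5 cAMP peaks at the 6 genes, so its presence did not set the *Abca1* peak apart. The half-site is shown with its surroundings, in capitals, on the minus strand (chr4:53160130-53160169, mm10).
Abca1 half-site: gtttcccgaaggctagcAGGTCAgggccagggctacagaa

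The LXR and RXR pair binds a direct repeat of that half-site with 4 bases between the copies, searched on both strands as AGGTCA, any 4 bases and AGGTCA again. None of the 12 peaks at the 6 genes held it exactly, and 1 peak in each whole list did, which is 0.0175% of vehicle and 0.0248% of cAMP peaks. With up to 3 of its 12 fixed letters differing, a match was in 5 of 7 vehicle and 3 of 5 cAMP peaks, against 53.6% and 51.3% of the lists. The *Abca1* promoter stretch held 1, as did 21.9% of the 32841 RefSeq promoters of the same length. That match was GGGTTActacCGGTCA on the plus strand (chr4:53159947-53159962), 67 bp before the start, with 3 letters differing. It lay within both the vehicle and the cAMP peak, and whether it is bound was not tested. With up to 2 differing, 1 of the 7 vehicle peaks and none of the 5 cAMP peaks did, against 11% and 10.3%. The GC box sequence was in both promoter peaks of *Abca1* and in no other peak at the 6 genes. It was in 13.3% of all vehicle peaks, 9.79% of all cAMP peaks and 35.7% of RefSeq promoters. CACGTG, likewise in the *Abca1* promoter peaks alone, was in 7.88%, 7.01% and 7.15%. The cAMP response element TGACGTCA was in none of the 12 peaks, against 0.699% and 0.77% of the lists. Its shorter form TGACG was in 1 peak of each list at the 6 genes, against 18.7% and 17.9%. CCAAT was in 3 vehicle peaks and 1 cAMP peak (46.7% and 45.1% of the lists), TGACTCA, the AP-1 element, in 2 and 1 (16.1% and 17.3%), and GATAAG, which GATA factors bind, in 1 vehicle peak and no cAMP peak (16.9% and 15%).

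The base composition of the *Abca1* promoter peak was also that of a CpG-rich start. Its GC content was 57.2% in the vehicle and 58.1% in the cAMP boundaries, above 91.7% and 95.4% of the peaks of each list, and its ratio of observed to expected CpG was 0.662 and 0.792, above 95.3% and 98.5%. The median of this ratio was 0.204 over the vehicle list and 0.192 over the cAMP list. It was 0.553 and 0.481 over the promoter peaks, and 0.673 and 0.583 over the promoter peaks without the 7 letters. The *Abca1* peak therefore lay near the promoter peaks without the sequence in the vehicle list and above their median in the cAMP list.

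A further peak in the *Abca1* window was called in the cAMP list alone. It lay 46.6 kb beyond the 3′ end of the gene (chr4:52983808-52984232), or 176 kb from the 5′ end, was 425 bp wide, and scored 59.03, rank 2703 of 4025. The nearest protein-coding start was that of *Nipsnap3a*, 5.26 kb away. This peak too lacked the consensus, and it held 2 copies of AGGTCA on opposite strands, 18 and 39 bp from its centre. The stretch on the plus strand with the copy nearer the centre was chr4:52984018-52984057.
Abca1 downstream half-site: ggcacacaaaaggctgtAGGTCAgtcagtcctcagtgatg
Its score was close to the median of 58.72 for the 1858 cAMP peaks without a vehicle counterpart, whereas the 2167 cAMP peaks with one had a median of 84.11.

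*Apoe*, the apolipoprotein of the group, lies on the minus strand of chromosome 7 (chr7:19696109-19699188), is only 3.08 kb long and had the most peaks of the 6 genes, with 5 vehicle and 3 cAMP peaks. At least as many vehicle peaks were assigned to 0.975% of all protein-coding genes (214 genes), and at least as many cAMP peaks to 2.65% (581 genes). None of these peaks touched the gene. The window of *Apoe* also holds 7 other protein-coding genes, among them *Apoc1*, *Apoc4*, *Apoc2*, *Tomm40* and *Nectin2*, and 4 of the 5 vehicle peaks were inside *Nectin2*, which encodes a cell adhesion molecule. The peak lists do not tell which gene a peak acts on.

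The peak nearest to *Apoe* lay 1.1 kb beyond its 3′ end in the vehicle list (chr7:19694095-19695014) and 1.16 kb beyond it in the cAMP list (chr7:19694283-19694949), between *Apoe* and *Apoc1*, whose start was 1.89 kb away. In vehicle cells it was 920 bp wide and scored 190.01, rank 353 of 5721. In cAMP cells it was 667 bp wide, all of it inside the vehicle peak, and scored 133.05, rank 462 of 4025. It thus ranked above 93.8% of the vehicle list and 88.5% of the cAMP list.

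Upstream positions are given for the centre of a peak from the 5′ end of *Apoe*. A peak as strong lay 34.9 kb upstream in intron 2 of *Nectin2*. It scored 189.98 in the vehicle list (chr7:19733753-19734358, rank 355) and 159.93 in the cAMP list (chr7:19733844-19734361, rank 291), above 93.8% and 92.8% of the lists. Another shared peak, 47.5 kb upstream in intron 1 of *Nectin2*, was weaker in the vehicle list, with a score of 64.91 (chr7:19746394-19746969, rank 3536), than in the cAMP list, with 88.50 (chr7:19746462-19746989, rank 1180). Between them lay a pair of peaks of the vehicle list alone, 38.3 kb (chr7:19737248-19737639, score 79.45, rank 2389) and 45.0 kb (chr7:19744032-19744425, score 79.09, rank 2413) upstream. Both vehicle-only peaks scored above the 64.99 that was the median of the 3554 vehicle peaks without a counterpart, and above the 64.91 of the shared intron 1 peak in that list.

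All 5 vehicle and all 3 cAMP peaks at *Apoe* held the Ad4BP/SF-1 consensus, and with the *Nr1h3* peak this made 6 of the 7 vehicle and 3 of the 5 cAMP peaks at the 6 genes, close to the shares of the lists given above. Every copy was of the TCAAGGTC or TCAAGGCC form, as were 70.4% of the copies in all vehicle peaks and 73.4% of those in all cAMP peaks. The copies of the peaks that the comparison of vehicle and cAMP turns on are shown, 40 bases each, with the consensus in capitals and read on the strand that holds it.
Apoe 3′ peak, chr7:19694421-19694460, plus strand: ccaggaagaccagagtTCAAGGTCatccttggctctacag
Apoe 3′ peak, chr7:19694600-19694639, plus strand: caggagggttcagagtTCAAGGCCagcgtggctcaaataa
Nectin2 intron 2 shared peak, chr7:19734065-19734104, plus strand: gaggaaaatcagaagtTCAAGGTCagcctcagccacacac
Nectin2 intron 2 vehicle-only peak, chr7:19737448-19737487, plus strand: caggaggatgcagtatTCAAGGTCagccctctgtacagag
Nectin2 intron 1 vehicle-only peak, chr7:19744184-19744223, plus strand: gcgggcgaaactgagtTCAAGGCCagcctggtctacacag
Nectin2 intron 1 shared peak, chr7:19746657-19746696, minus strand: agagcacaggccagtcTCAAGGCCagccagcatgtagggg
In the plot of consensus positions, each of these copies except the first lay at most 65 bp from the centre of the peak in both lists or in its only list. The nearest was 3 bp from the centre of the cAMP peak 3′ of *Apoe*. The 2 copies not printed were both in intron 2 of *Nectin2*, 1 in the shared peak, 286 bp from the centre of the vehicle peak and outside the cAMP peak, and 1 in the vehicle-only peak, 53 bp from its centre.

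**Figure D2:**
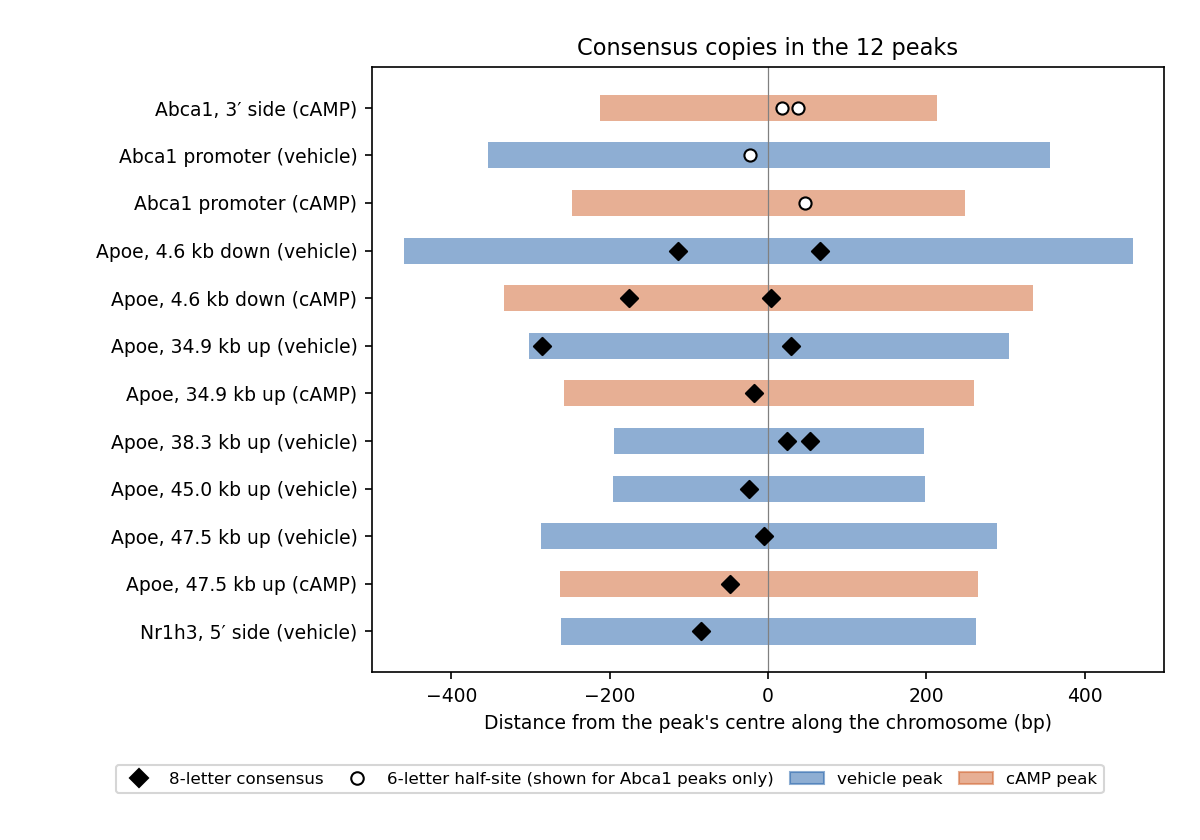
Peaks at the 6 genes drawn to their width around their centres, with the distance from the centre in bp along the chromosome on the horizontal axis; vehicle peaks are blue, cAMP peaks orange, diamonds mark copies of the consensus and open circles mark AGGTCA in the peaks of *Abca1*. All peaks at *Apoe* and *Nr1h3* hold 1 or 2 diamonds, and the 3 peaks of *Abca1* hold none.

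*Nr1h3* encodes LXRα and lies on the minus strand of chromosome 2 (chr2:91184061-91202834). It had 1 peak, in the vehicle list alone, with its centre 39.2 kb upstream of the 5′ end (chr2:91241730-91242253). The peak was 524 bp wide and scored 64.70, rank 3561 of 5721, so that 37.7% of the list scored lower, and this was close to the median of the vehicle peaks without a counterpart. The nearest protein-coding start was that of *Ddb2*, a DNA damage-binding protein gene, 5.01 kb away, so *Ddb2* was nearer to it than *Nr1h3*. The nearest cAMP peak was 224 kb from *Nr1h3*. The single consensus copy of the peak lay 85 bp from its centre on the plus strand (chr2:91241887-91241926).
Nr1h3 upstream peak: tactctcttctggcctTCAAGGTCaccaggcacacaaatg

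The remaining genes had no peak within 50 kb. For *Abcg1*, the transporter that passes cholesterol to mature high-density lipoprotein (chr17:31057675-31117988), the nearest peak was 193 kb away in the vehicle list and 121 kb in the cAMP list. For *Mylip* (chr13:45389742-45412022) the distances were 110 kb and 215 kb, and its window holds no other protein-coding gene. For *Nr1h2*, encoding LXRβ (chr7:44549616-44553951), the nearest peak lay only just past the limit, at 50.2 kb in the vehicle list (chr7:44498780-44499374) and 50.3 kb in the cAMP list (chr7:44498819-44499288), within *Fam71e1* and, in the vehicle list, 2.42 kb from the start of that gene. It scored 71.57 in the vehicle list, rank 2926, and 234.08 in the cAMP list, rank 97. On the inner side of the limit, the closest was the shared *Apoe* peak, with edges 47.2 kb (vehicle) and 47.3 kb (cAMP) from the gene, followed by the *Abca1* cAMP peak at 46.6 kb. A gene without a peak is one at which the deposited list holds no region. The methods give a more lenient p-value limit for peak calling than the lowest score of these lists corresponds to, so weaker regions that were called may not be listed, and the depth is unknown.

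RefSeq promoters were matched for 5 of the 6 genes (*Abca1*, *Apoe*, *Mylip*, *Nr1h2* and *Nr1h3*), with 8 entries in all because *Apoe* had 3 and *Nr1h3* had 2. No entry but that of *Abca1* met a peak. Only 1 of the 8, at the 5′ end of the *Apoe* gene model, held the Ad4BP/SF-1 consensus (1 copy), against 5.73% of all RefSeq promoters, and it was in no peak of either list.

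To compare the conditions at the same places, the scores of overlapping peaks were set side by side. Of the 7 vehicle peaks, 4 had a counterpart in the cAMP list, and 4 of the 5 cAMP peaks had one in the vehicle list, against 37.9% and 53.8% of the lists. The ratio of the cAMP to the vehicle score was 0.518 at the *Abca1* promoter, 0.700 at the *Apoe* 3′ peak, 0.842 at the shared peak in intron 2 of *Nectin2* and 1.36 at the one in intron 1. Over all 2171 overlapping pairs the median ratio was 0.880, with quartiles of 0.632 and 1.19, and 61.1% of the pairs scored lower in the cAMP list. The *Abca1* promoter was thus below the lower quartile, with 14.6% of the pairs having a lower ratio, the intron 1 peak was above the upper quartile, with 83.7% lower, and the other pairs lay between, with 31.0% and 46.0% lower. Because the vehicle score is the denominator and no listed score is below 50, the ratio depends on the vehicle score by construction, so each pair was also set beside pairs of like vehicle score, in 4 groups of near equal size. Among the pairs of the lowest group (50.11 to 70.51), which held the intron 1 peak, the median ratio was 1.17, and 68.8% had a lower ratio than that peak. In the group next to the highest (96.74 to 147.52), which held the *Abca1* promoter, the median was 0.732 with a lower quartile of 0.565, and 17.7% had a lower ratio. In the highest group (147.59 and above) the median was 0.587, and 63.9% and 78.5% had a lower ratio than the *Apoe* 3′ and intron 2 peaks. Read as the share of its own list that scored lower, the difference (cAMP minus vehicle) was -29.4 percentage points at the *Abca1* promoter and 32.6 points at the intron 1 peak of *Nectin2*. It was -5.31 points at the *Apoe* 3′ peak and -1.02 points at the intron 2 peak, beside a median of -2.02 over all pairs. These differences depend on the unequal lengths of the lists (5721 and 4025 peaks). With only the 4025 highest vehicle peaks, the vehicle share of the *Abca1* promoter fell from 87.9% to 82.8%, and the other pairs were not recomputed. The centres of the 4 pairs were 44 to 69 bp apart, against a median of 46 bp. Without replicates, none of these differences can be told apart from the variation between libraries.

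**Figure D3:**
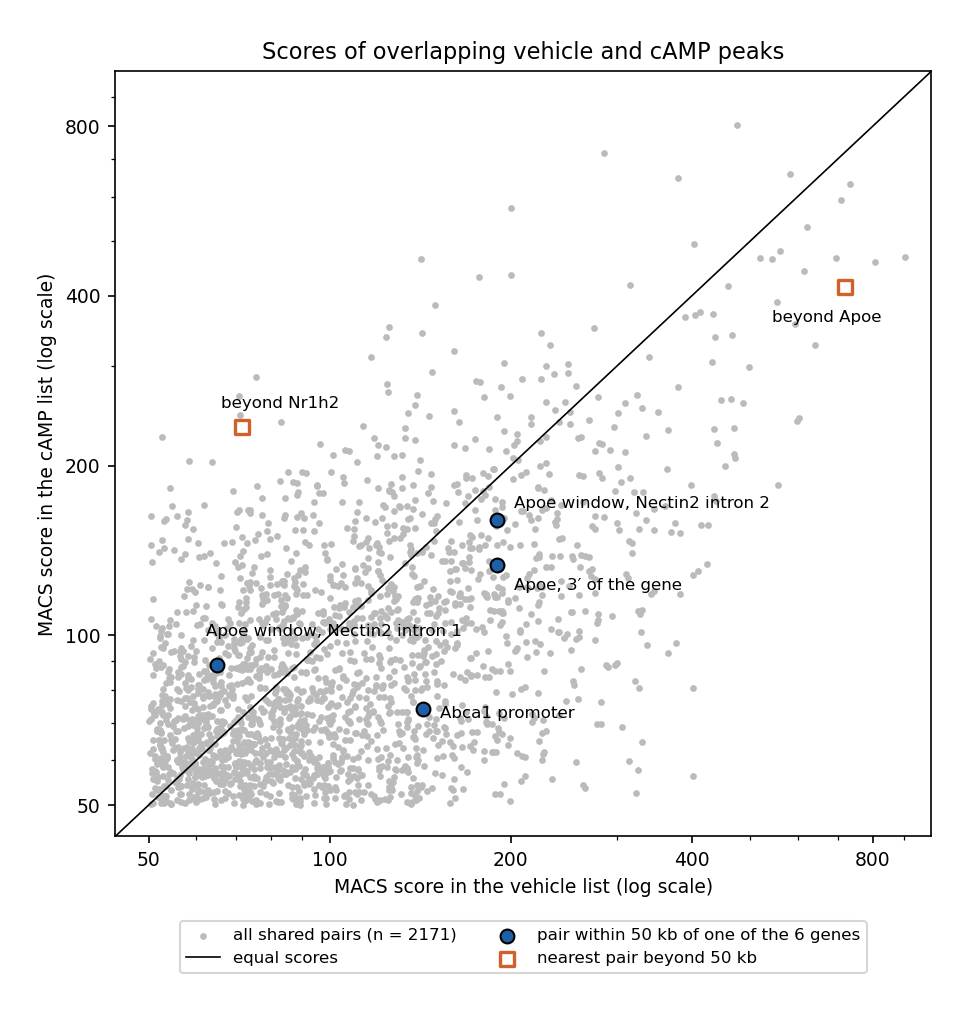
MACS score of each overlapping pair of peaks in the vehicle list (horizontal, log scale) against the cAMP list (vertical, log scale), for all 2171 pairs in grey, the 4 pairs at the 6 genes in blue and the nearest pairs beyond 50 kb as open squares; the line marks equal scores. The *Abca1* promoter lies below the line at 142.86 and 73.93, and the pair beyond *Nr1h2* lies far above it at 71.57 and 234.08.

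The pairs just outside the limit lay on opposite sides of equal scores. The pair beyond *Nr1h2* had a ratio of 3.27, and 99.6% of all pairs had a lower one, though it was not set beside pairs of like vehicle score. The pair beyond *Apoe*, 60.4 kb from it within *Clptm1*, was among the strongest of both lists, with scores of 718.52 (chr7:19634396-19635683, rank 4) and 415.10 (chr7:19634471-19635130, rank 22), and had a ratio of 0.578. The median ratio of the group of highest vehicle scores (147.59 and above) was 0.587. Both pairs held the consensus.

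Around the 6 genes, 28 further genes of the pathway were looked up by role. A vehicle peak lay at 17 of them (60.7%) and a cAMP peak at 13 (46.4%), with 10 in both lists and 8 in neither, beside the 36.7% and 28.9% of all genes. Neighbouring genes share peaks, and 3 of the 28 (*Apoc1*, *Apoc2* and *Apoc4*) share those of *Apoe*. Without them the counts were 14 and 10 of 25. The plot of peaks per gene gives the number at each, by role.

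**Figure D4:**
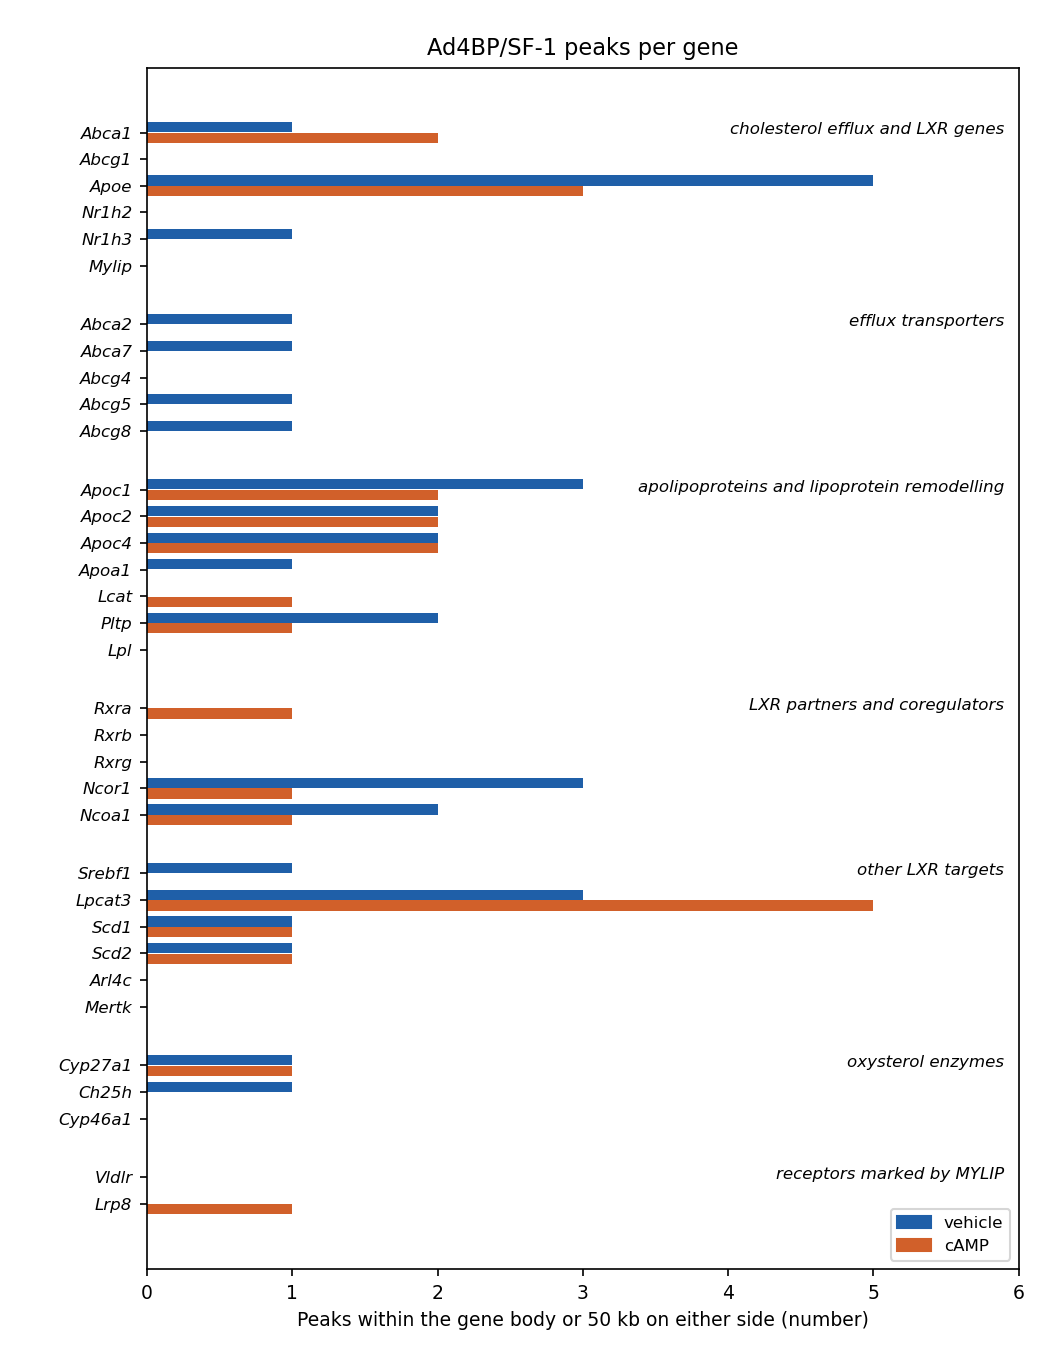
Number of vehicle (blue) and cAMP (orange) peaks within the gene body or 50 kb on either side, for the 6 cholesterol efflux and LXR genes and for 28 further genes of the pathway grouped by role. *Apoe* has 5 and 3, *Lpcat3* has 3 and 5, and 4 of the 5 further efflux transporters have vehicle peaks (3 peaks in all, since *Abcg5* and *Abcg8* share 1) and none has a cAMP peak within 50 kb. The peaks of *Abca2* and *Abca7* lie nearest to the starts of other genes.

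Of the other efflux transporters, *Abca2*, *Abca7*, *Abcg5* and *Abcg8* had 1 vehicle peak each and no cAMP peak, and *Abcg4* had none. By the same rule, 36.7% of all genes had a vehicle peak and 28.9% a cAMP peak. The *Abca2* peak, which scored 86.99, was nearest to the start of *Ptgds*. That of *Abca7*, at 85.52, lay in an intron of *Gpx4*. When peaks went to the gene with the nearest start, only *Abcg8* of these kept its vehicle peak. With 100 kb on either side, *Abca7* had a cAMP peak too. *Abcg5* and *Abcg8*, which encode partner subunits of the intestinal and biliary sterol exporter, share 1 peak in intron 2 of *Abcg8*, which scored 116.74 and did not hold the consensus. Among 7 genes of apolipoproteins and lipoprotein remodelling, 5 had a vehicle peak and 5 a cAMP peak, beside 36.7% and 28.9% of all genes. In both lists these included the neighbours *Apoc1*, *Apoc2* and *Apoc4*, which share peaks with *Apoe*. The vehicle peak of *Apoa1* lay in intron 16 of *Sik3*. The cAMP peak of *Lcat* scored only 50.34, rank 3953 of 4025, and was nearest to the start of *Psmb10*. The strongest peak of *Apoc1* in the vehicle list was the one 3′ of *Apoe*, and that of *Apoc2* and *Apoc4* was the *Clptm1* peak of 718.52. *Pltp*, the phospholipid transfer protein and an LXR target, had a shared peak 22.5 kb upstream in intron 1 of *Pcif1*, which scored 160.43 with vehicle and 85.50 with cAMP.

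Among the partners and coregulators of the LXRs, the corepressor gene *Ncor1* and the coactivator gene *Ncoa1* had peaks in both lists. For both genes the only cAMP peak overlapped 1 of the vehicle peaks, though not the strongest one. *Ncor1* had 3 vehicle peaks and 1 cAMP peak, with strongest scores of 93.86, in intron 2 of *Zswim7*, and 136.73, in its own intron 1. *Ncoa1* had 2 and 1, with 102.70, over exons of *Adcy3* and *Cenpo*, and 55.11, in its own intron 9. Of the genes for the RXRs, *Rxra* had 1 cAMP peak, near the lowest score of the list at 52.35 (rank 3577 of 4025), and *Rxrb* and *Rxrg* had none.

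Of 6 further LXR targets, 4 had a vehicle peak and 3 a cAMP peak, beside 36.7% and 28.9% of all genes. *Lpcat3*, a phospholipid remodelling enzyme, had 3 and 5, and the strongest in both lists was shared, in its own intron 1, with scores of 184.61 and 110.75 and no consensus. The stearoyl-CoA desaturase genes *Scd2* and *Scd1* had 1 peak in each list. That of *Scd2* was shared, at 126.30 and 76.14, and those of *Scd1* lay at different places, at 52.04 and 75.59. Of 3 enzymes that make oxysterols, the ligands of the LXRs, *Cyp27a1* had 1 peak in each list at different places, at 118.00 and 140.56. The first was in intron 1 of *Wnt6* and the second was nearest to the start of *Prkag3*. *Ch25h* had a vehicle peak, in intron 3 of *Lipa* with a score of 56.96, and *Cyp46a1* had none. Of the receptors that MYLIP marks, *Lrp8* had 1 cAMP peak and no vehicle peak, and *Vldlr* had none. The *Lrp8* peak lay in intron 1 of *Cpt2*, 118 kb from the 5′ end of *Lrp8*.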

How the data were processed

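Ad4BP/SF-1 ChIP-seq peaks from vehicle-treated and cAMP-treated Leydig cells were analysed, 1 library for each condition; the input DNA sample has no file here. The authors mapped reads to mm10 with Bowtie (0.12.8 in the submitters' processing notes, which also name FastQC 0.11.5), allowing 3 mismatches and keeping uniquely mapped reads, which can remove peaks in repeats, and called peaks with MACS. Whether the input was its control is not given in the sources used here. The deposited score is the authors' MACS score. Read numbers are unknown.

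Peaks were assigned to protein-coding genes of GENCODE M21, and to counterparts sharing at least 1 bp, in Python 3.11.15 (pandas 2.3.3, numpy 2.4.6), with a check by bedtools 2.31.1. Sequences were read with pysam 0.24.0 from GRCm38.p6, and motifs were searched on both strands. The functions were tested on simulated data. Figures used matplotlib 3.10.9. Coordinates count from 1. Named genes were the 6, those of the pathway list with a peak in both lists, and those holding or nearest to a peak. Other names, *Cyp17a1*, *Abca2* and *Lrp8* among them, were given after their values were seen. Some genes of the pathway list are not reported here. The members and lists were chosen with earlier results of these data known.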

Additional observations from a re-analysis of the deposited data

How the results depend on the processing

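Of 103 recomputed values, 44 stayed within their limits and 59 moved. The counts depended mainly on the assignment window. With no flank at all, 1 of the 6 genes had a vehicle peak, 1 a cAMP peak and 1 both, with 1 vehicle and 1 cAMP peak, 1 of each with a counterpart and 0 of each with the consensus, and of the 28 further genes 4 had a vehicle peak and 3 a cAMP peak, while 12.6% and 9.16% of all protein-coding genes did. With 10 kb, there were 2 vehicle and 2 cAMP peaks, 2 of each with a counterpart and 1 of each with the consensus, and 7 and 5 of the further genes (19.3% and 14% of all genes). With 100 kb, 4 genes had a vehicle peak and 3 a cAMP peak, 3 of them both, as *Nr1h2* joined, with 10 and 7 peaks, of which 5 cAMP peaks held the consensus (49.4% and 41.3% of all genes had a peak). When each peak was given to the gene with the nearest transcription start, only *Abca1* kept a peak, so 1 gene in each list and 1 in both, with 1 peak in each list, 1 of each with a counterpart and 0 of each with the consensus, and 5 and 6 of the further genes had one, against 18.2% and 14.2% of all genes.

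With scores of at least 75, 1 gene (*Apoe*) had a cAMP peak and 1 had both, with 3 cAMP peaks and 2 of each list with a counterpart (22.4% and 14.6% of all genes had a vehicle and a cAMP peak). With at least 100, 1 gene had a cAMP peak and 1 had both, with 3 vehicle and 2 cAMP peaks, 2 of each with a counterpart, 2 vehicle peaks with the consensus, and 10 and 7 of the further genes (14.6% and 9.12% of all genes). At both limits the cAMP peak at the *Abca1* promoter drops out and has no value, and the share of vehicle peaks scoring lower than the one at that promoter becomes 74.1% and 54.6%. With the 4025 highest vehicle peaks it becomes 82.8%. Lists of equal length, an overlap of 50%, a gap of 500 bp, the 7-letter sequence, 1 mismatch and the central 200 bp changed none of these counts by over 1.5 times.

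No paired analysis was possible because each condition was 1 library without a replicate number, and for the same reason no library was left out in turn. With unknown depth, a lower score or a missing peak in the cAMP list cannot be told apart from shallower sequencing.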

Other observations

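The consensus copies at *Apoe* and *Nr1h3* lay largely in sequence that the RefSeq genome file prints in lower case, which marks interspersed repeats and low-complexity DNA. This was looked at after the sequences had been seen. Of the 9 copies in the vehicle peaks, 7 were in such sequence, and of the 4 in the cAMP peaks, 3 were, against 36.1% of the 6017 copies in all vehicle peaks and 40.9% of the 4049 in all cAMP peaks. In 4 of the 6 vehicle peaks with a copy, every copy was masked, against 33.6% of the list, and in 2 of the 3 cAMP peaks, against 37.9%. The copies outside it were the one in the shared peak in intron 1 of *Nectin2* and 1 of the 2 in the vehicle-only peak 38.3 kb upstream of *Apoe*. The most frequent 12-base forms among the copies at the 6 genes, with 3 copies each in the vehicle peaks, were TTCAAGGCCAGC, in 8.15% of all vehicle peaks and 8.22% of all cAMP peaks, and TTCAAGGTCAGC, in 8.20% and 9.59%. Because they were read from the peaks at the 6 genes, their number there is not set against these shares. The repeat families were not identified here, and reads that fit several places had been left out by the authors before peaks were called.

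Over their whole length, the peaks at the 6 genes were masked from 5.41%, at the cAMP peak 3′ of *Abca1*, to 61.8%, at the *Nr1h3* peak. The shared peak in intron 1 of *Nectin2* was masked over 11.3% (vehicle) and 7.01% (cAMP), the *Abca1* promoter peak over 36.5% (vehicle) and 32.3% (cAMP), and the median peak over 13.8% and 14.4%.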
